A study of Mus musculus with 4 samples.

Results

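The genes described here are 36 mouse genes of origin licensing, the replication fork, deoxynucleotide supply and G1/S control, picked by name from a table of 53465 genes. All 36 passed the filter on low counts, as did 12320 genes in all, and the lowest count of any of them in any library was 129. PolyA RNA was measured in B16-F10 cells, a mouse melanoma line. The cells had passed through zebrafish after infusion and were then recovered and cultured (IMDM with serum). The 2 groups differ in the labels' extravasation field: 2 libraries are marked as from cells that left the vessels (extravasated) and 2 as from cells that did not, and the series' design text names the latter as the control. The growth text describes cells that extravasated as clusters for all 4 libraries, so the groups rest on that field and on the source name. The labels name no genetic change or drug, and all groups share the fluorescent label, the passage through fish and the culture. Nothing in them ties the 2 libraries of a group to separate cultures or fish, so the p-values cover the spread among these 4 samples only, and that spread may be technical. The number in the sample titles differs between the groups and cannot be told apart from extravasation.

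Replication starts from origins that are licensed in G1, when the origin recognition complex, Cdc6 and Cdt1 load the MCM2-7 helicase as double rings. At the start of S phase, cyclin-dependent kinases and the Dbf4-Cdc7 kinase turn that helicase on with the help of Mcm10, Cdc45 and the GINS complex, and polymerases then copy both strands. Many of these genes are targets of E2F transcription factors, which cyclin D-Cdk4 and cyclin E-Cdk2 release from the retinoblastoma protein, and their mRNAs mark proliferating cells such as cultured melanoma cells.

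Library totals ran from 11705904 to 19674733 counts. Markers of pigment cells fixed beside the gene set summed to 23901 to 30914 CPM (counts divided by a library total scaled with TMM factors, which makes libraries comparable), with all 8 detected. Markers of fibroblasts summed to 21.2 to 27.7 CPM and those of leukocytes to 4.52 to 5.37 CPM. Those of endothelium and of epithelium each stayed at or below 1.21 CPM in sum, and 4 of 7 and 4 of 6 of them had no count in any library. Across 11126 tested coding genes of the nuclear genome, the fold change followed the GC content of the transcript (Spearman rho 0.74; genes are not independent replicates). The fold changes were therefore also computed after a smooth correction for transcript GC content and length in each library.

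E2F factors act at promoters, so the promoters of the 36 genes were searched for E2F-type motifs. In RefSeq's promoter table (GRCm38.p6, 250 bases before to 50 after each start), 30 of the 36 genes were found. An E2F-type motif (TTTGGCGC, TTTCCCGC, TTTGCCGC or TTTCGCGC, either strand, overlapping matches allowed) stood in the promoters of 13 of the 30, or 43.3%, against 2.6% of the 27025 genes of that table and 4.98% of its 9231 tested genes. In 8 genes a match lay wholly before RefSeq's start. A CHR-type motif (TTTGAA, either strand), known from genes of G2 and mitosis, stood in 4 of the 30, or 13.3%, against 14% of the tested genes, and in 18 of 24 genes of a mitosis list. The windows below are shown because these genes share a match before RefSeq's start and yet had different fold changes in the next paragraphs; capitals mark the matched bases, joined where matches overlap.
Mcm5 (chr8:75109330-75109393, plus strand): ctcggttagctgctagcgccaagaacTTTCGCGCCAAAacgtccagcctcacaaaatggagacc
Mcm6 (chr1:128359778-128359841, minus strand): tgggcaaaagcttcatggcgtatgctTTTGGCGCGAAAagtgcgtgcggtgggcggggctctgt
Mcm7 (chr5:138172015-138172074, minus strand): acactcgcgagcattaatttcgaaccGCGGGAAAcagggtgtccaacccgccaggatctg
Cdc6 (chr11:98907987-98908046, plus strand): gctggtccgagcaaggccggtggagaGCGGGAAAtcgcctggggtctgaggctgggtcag
Orc1 (chr4:108579401-108579453, plus strand): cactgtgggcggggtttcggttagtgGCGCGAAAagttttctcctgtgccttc
Pola1 (chrX:93632260-93632319, minus strand): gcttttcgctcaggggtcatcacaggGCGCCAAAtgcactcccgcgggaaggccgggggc
The matches shown began 153 bases before RefSeq's start in Mcm5, 110 in Mcm6, 165 in Mcm7, 138 in Cdc6, 27 in Orc1 and 138 in Pola1. Against the GENCODE gene starts those of Mcm5, Mcm6 and Pola1 began 213, 151 and 138 bases before, and those of Orc1, Mcm7 and Cdc6 began 4, 374 and 212 bases after, inside the annotated gene. Mcm6 held another match 47 bases before RefSeq's start, and Mcm7 another after it. Rfc3 and Uhrf1 also had a match before RefSeq's start, at 10 and 185 bases, and their windows are not shown. A match is a description of the letters and not a binding site. Among the 13 genes with a motif the median log2 fold change was 0.38 (range -1.55 to 0.80), with 7 higher and 1 lower by edgeR. Among the 17 without one it was 0.33 (-0.96 to 0.63), with 8 higher and 1 lower. Of all tested genes 19.1% were higher and 25.9% lower. After the GC and length correction the medians were 0.26 among the 13 (2 higher and 0 lower by edgeR) and 0.29 among the 17 (5 higher and 1 lower). In that fit 8.24% of all tested genes were higher and 5.8% lower. The difference between the 13 and the 17 genes was not tested.

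The comparison set the replication genes of extravasated cells beside those of the infused cells that stayed behind. As fitted, 15 of the 36 rose in extravasated cells and 3 fell (edgeR's quasi-likelihood test, Benjamini-Hochberg adjusted p under 0.05 over all tested genes), which is 41.7% and 8.33%, where 19.1% of all tested genes were higher and 25.9% lower. Their median log2 fold change was 0.33, against -0.02 over all tested genes. After GC and length correction 7 rose and 1 fell, or 19.4% and 2.78%, against 8.24% and 5.8% of all tested genes, and the median was 0.28 against 0.04. The genes called were mostly different ones: 3 kept the same call in both fits (Mcm5 and Mcm10 higher, Slbp lower), 15 were called as fitted only and 5 after correction only. The CPM of the 2 groups did not overlap for 24 genes that were higher and 7 that were lower in extravasated cells, or 66.7% and 19.4%, where this held for 37.3% and 39% of all tested genes. Summed over the 36 genes, the level was 6494 and 6412 CPM without and 7995 and 8142 CPM with extravasation. On the corrected scale those sums were 6279 and 6362 against 7991 and 8342 CPM.

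The calls depended on single libraries. Without extravasated library 2 only Cdt1, Pold1 and Chaf1b rose and Pola1 and Slbp fell as fitted, or 3 and 2 of the genes, where 4.29% of all tested genes were higher and 10.5% lower. The median log2 fold change of the 36 genes in that fit was 0.33. The other 12 rises ended there with log2 fold changes of 0.34 to 0.69 (edgeR adjusted p = 0.0503 to 0.253), as did the fall of Mcm4 with -0.64 (adjusted p = 0.0642). Lig1 and Ung also lost their call without non-extravasated library 1 and without extravasated library 1 (0.27 and 0.55 for Lig1, 0.49 and 0.74 for Ung). With all libraries Lig1 was not called without scaling factors (0.32, edgeR adjusted p = 0.112) or without robust moderation (0.38, adjusted p = 0.0534), and Ung not without scaling factors (0.57, adjusted p = 0.051). Without extravasated library 1, 13 rose and 3 fell as fitted, against 12.7% and 15.1% of all tested genes. Without non-extravasated library 1 these counts were 14 and 5 (21.5% and 27.3% of all genes), and without non-extravasated library 2 they were 16 and 4 (19.4% and 28.1%).
After correction, leaving out either extravasated library ended all 8 calls by edgeR, where 0.566% and 0% of all tested genes were higher and 0.488% and 0.0157% lower. In those fits, without extravasated library 1 and 2 in turn, the median corrected log2 fold change of the 36 genes was 0.29 and 0.30. Without non-extravasated library 1 the corrected fit had 13 of the genes higher and 1 lower (16% and 11.9% of all genes), and without non-extravasated library 2 it had 11 and 1 (11% and 7.61%). The corrected log2 fold change was above 0 for 33 of the 36 genes (91.7%) with all libraries, against 53.7% of all tested genes, and for 31 to 33 of them with 1 library left out.

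**Figure D1:**
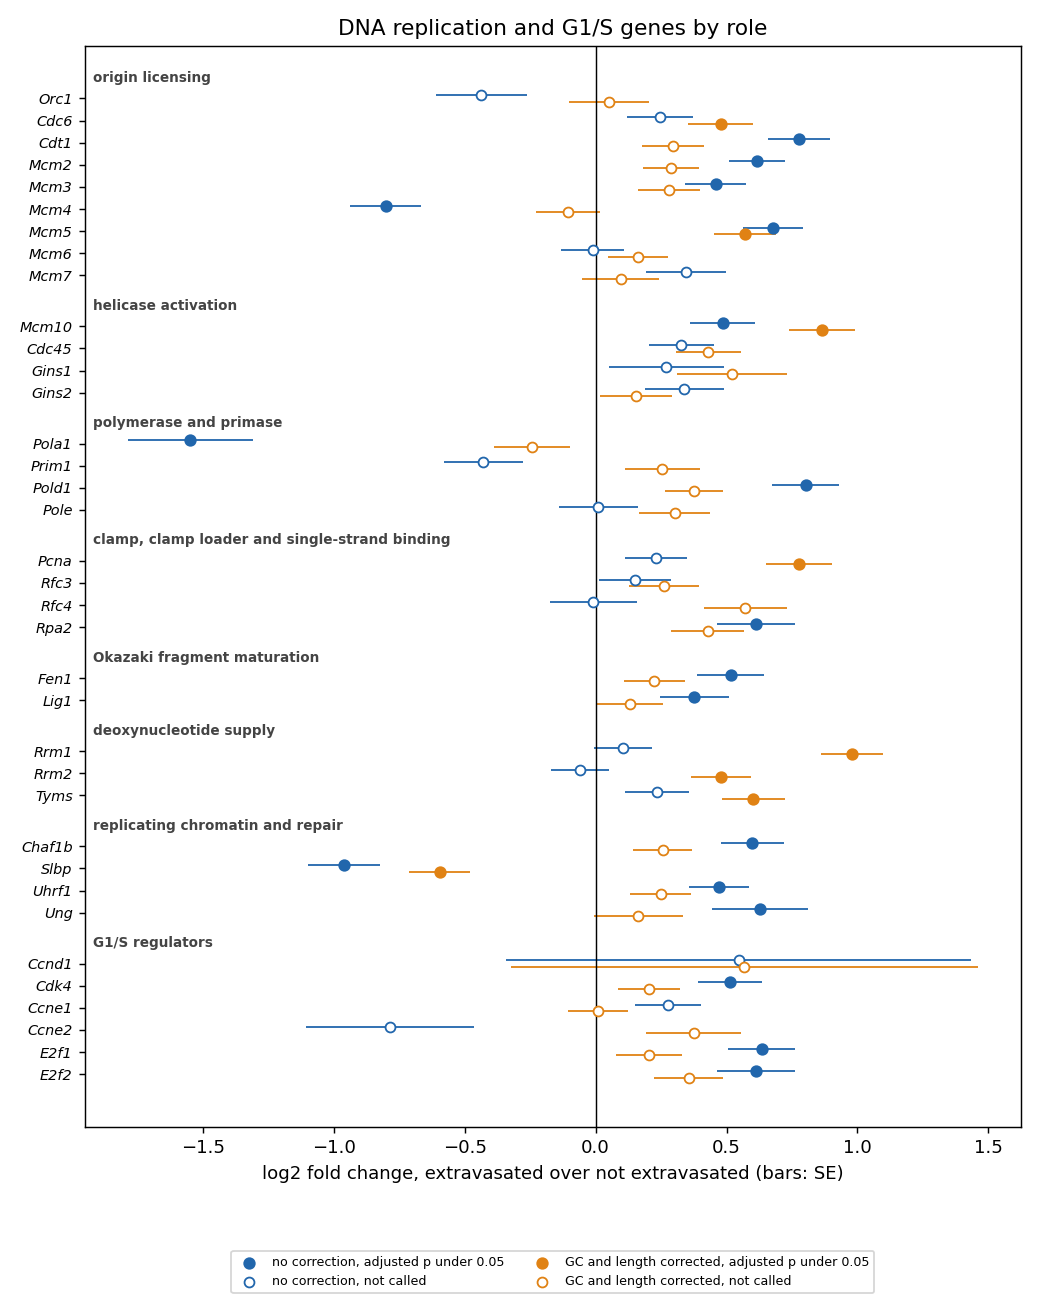
Log2 fold change of extravasated over non-extravasated libraries (x axis) for each of the 36 genes, grouped by role, as fitted (blue) and after GC and length correction (orange); bars are standard errors, and filled points have an adjusted p under 0.05. Mcm5, Mcm10 and Slbp are filled in both fits, and Pola1 moves from -1.55 to -0.24.

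The counts by role here and below stand beside 19.1% of all tested genes higher and 25.9% lower as fitted, and 8.24% and 5.8% after correction. Of 9 origin licensing genes, 4 rose and 1 fell as fitted, and 2 rose after correction. Cdt1, the factor that brings the MCM helicase to origins, stood at 98.7 and 94.9 CPM in non-extravasated cells and at 166 and 166 CPM in extravasated cells. That is a 1.71-fold rise (log2 fold change 0.78 ± 0.12, SE, n = 2 per group; adjusted p = 0.00266 by edgeR), and the libraries within each group were nearly equal. After correction its log2 fold change was 0.30 and it was not called (adjusted p = 0.127). Cdc6, which loads the helicase together with Cdt1, stood at 88.5 and 99.2 against 112 and 111 CPM. Its groups did not overlap, its log2 fold change of 0.25 did not pass as fitted (edgeR adjusted p = 0.149), and the corrected value of 0.48 did (adjusted p = 0.0426). Orc1, the largest subunit of the origin recognition complex, stood at 28.2 and 32.1 against 24.2 and 20.4 CPM, with a log2 fold change of -0.44 as fitted and 0.05 after correction, neither called.

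The helicase subunits Mcm2 to Mcm7 form 1 ring with a single copy of each, and as fitted their mRNAs went in different directions. Mcm2 stood at 652 and 658 CPM on the non-extravasated side and at 987 and 1022 CPM on the extravasated side (log2 fold change 0.62 ± 0.107, SE; adjusted p = 0.00404 by edgeR; 0.29 corrected, adjusted p = 0.114). Mcm5 stood at 402 and 434 against 644 and 693 CPM. It rose 1.60-fold as fitted (log2 fold change 0.68, edgeR adjusted p = 0.00377) and was called after correction too, at 0.57 (adjusted p = 0.0224). In both genes each extravasated library lay above both others. Mcm3 rose as well, from 445 and 493 to 620 and 669 CPM, with a log2 fold change of 0.46 (0.28 corrected, edgeR adjusted p = 0.149). Mcm4 fell, from 234 and 256 to 153 and 128 CPM (log2 fold change -0.80 ± 0.137, SE; adjusted p = 0.00376 by edgeR), and its corrected value was -0.10 (adjusted p = 0.596). Mcm6 had overlapping groups, with 427 and 462 against 466 and 415 CPM, and its log2 fold change of -0.01 changed sign with another scaling (0.01 with RLE and 0.08 with upper quartile factors; 0.16 corrected, not called). Mcm7 stood at 181 and 236 against 256 and 275 CPM, and its difference between the non-extravasated libraries (0.38 on the log2 scale) was larger than its log2 fold change of 0.35 (0.10 corrected, called in neither fit).

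Per kilobase of transcript, which allows levels of different genes to be set side by side, Mcm2 was the most abundant subunit mRNA in every library. Mcm4 and Mcm7 were the least abundant. Mcm4 made up 8.91% and 8.96% of the summed CPM per kilobase of the 6 subunits without extravasation, against 4.36% and 3.57% with it. The ratio of the highest to the lowest subunit was 3.16 and 2.74 in the former and 6.87 and 8.48 in the latter. On the corrected scale it was 4.36 and 3.81 against 5.20 and 5.47, so the gap between groups was narrower there. The transcript GC content of the subunits ran from 45.5% in Mcm4 over 49.1% in Mcm6, 51.9% in Mcm5, 52.5% in Mcm3 and 53.4% in Mcm7 to 55.5% in Mcm2. Mcm4 and Mcm6 thus had the lowest GC content and the lowest fold changes, while Mcm5 had the highest fold change with a GC content in the middle.

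**Figure D2:**
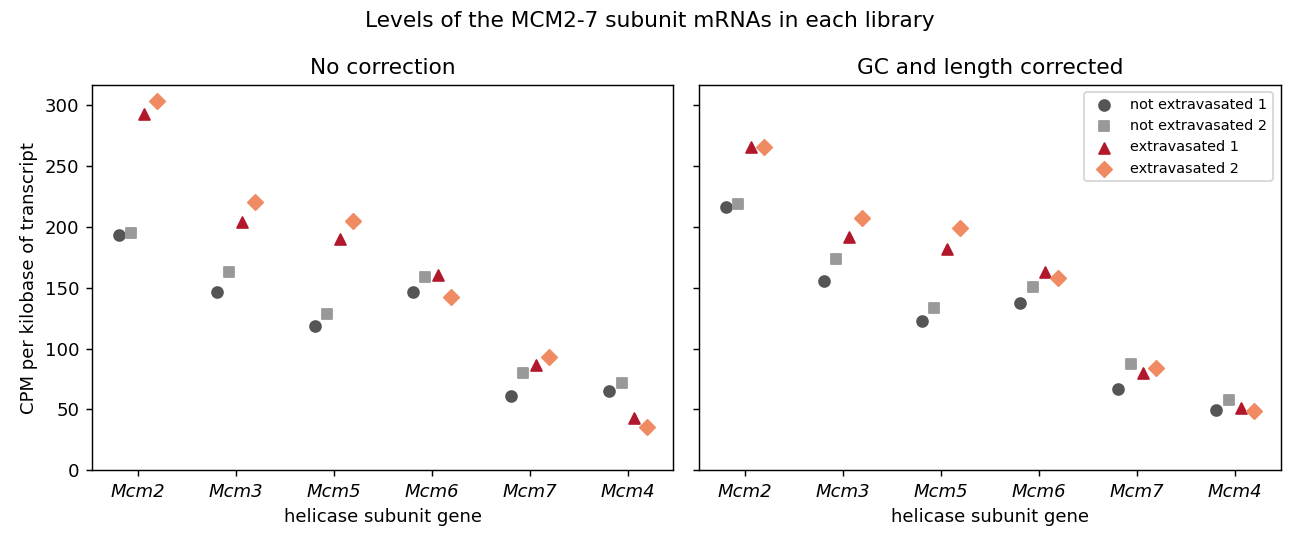
Level of each MCM2-7 subunit mRNA in CPM per kilobase of transcript (y axis, linear from 0) in each of the 4 libraries, as measured (left) and after GC and length correction (right). Mcm2 rises from 193 and 195 to 293 and 303 as measured, while Mcm4 drops from 65.2 and 71.3 to 42.6 and 35.8, and corrected Mcm4 values overlap between groups.

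Helicase activation genes had log2 fold changes above 0 in both fits, and 1 of the 4 was called. Mcm10, which helps the loaded helicase to unwind origins, stood at 126 and 114 against 164 and 172 CPM, so that both extravasated libraries lay above both others. It rose 1.40-fold (log2 fold change 0.49 ± 0.125, SE; adjusted p = 0.0165 by edgeR), and the log2 value was 0.86 after correction (adjusted p = 0.00851). Cdc45, which joins MCM2-7 and GINS in the active helicase, stood at 91.5 and 97.3 against 115 and 122 CPM and missed the threshold in both fits (edgeR adjusted p = 0.0636 and 0.0581). The GINS subunit genes were weakly expressed: Gins1 stood at 11.2 and 15.1 against 17.1 and 14.8 CPM, with overlapping groups, and Gins2 at 26 and 27.5 against 33.2 and 34.4 CPM. Their log2 fold changes were 0.27 and 0.34 as fitted and 0.52 and 0.15 after correction. Most of the annotated exon length of Gins2 (67.3%) lies opposite exons of Gse1, a gene on the other strand, so its count depends on a strand setting that is not given in the sources used here.

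Of the 4 polymerase and primase genes 1 rose and 1 fell as fitted. Pold1, the catalytic subunit of polymerase delta (GRCm38 chromosome 7, 44532746 to 44548849 on the minus strand), stood at 94.6 and 98.8 against 158 and 179 CPM. Its log2 fold change of 0.80 ± 0.128 (SE; adjusted p = 0.00299 by edgeR) was the highest of the 36 genes as fitted. Pola1, the catalytic subunit of the polymerase alpha that starts each new strand (GRCm38 chromosome X, 93304767 to 93632155 on the minus strand), had the lowest. It stood at 107 and 65.2 against 28.9 and 29.7 CPM. The non-extravasated libraries differ by more than 1.5-fold, and the groups do not overlap. It fell by 1.55 on the log2 scale (SE 0.239; adjusted p = 0.00379 by edgeR) and was called without each library in turn, with -1.86 to -1.15. After correction neither gene was called: Pold1 had 0.38 (adjusted p = 0.063) and Pola1 -0.24 (adjusted p = 0.292). The transcripts of these genes have the highest and the second lowest GC content of the set, 60.7% and 41.5%. Prim1, the primase that makes the RNA primers with Pola1, stood at 59.1 and 66.7 against 50.8 and 42.9 CPM and just missed the threshold (log2 fold change -0.43, edgeR adjusted p = 0.0509; 0.25 corrected, not called). Pole, the leading-strand polymerase epsilon, had overlapping groups and a log2 fold change of 0.0097, which turned to -0.04 without scaling factors and was 0.30 after correction, not called.

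Among the clamp and single-strand binding genes, Rpa2, a subunit of the protein that covers unwound single strands, stood at 35.2 and 36 against 50 and 58.9 CPM. It rose 1.53-fold as fitted (edgeR adjusted p = 0.0138), and its corrected log2 fold change was 0.43 (adjusted p = 0.0785). Pcna, the sliding clamp that holds polymerases on DNA, stood at 324 and 362 against 414 and 391 CPM, without overlap. As fitted its log2 fold change of 0.23 did not pass (edgeR adjusted p = 0.15), and after correction it was 0.78 and passed (adjusted p = 0.0113). The clamp loader genes Rfc3 and Rfc4 were called in neither fit, with log2 fold changes of 0.15 and -0.01 as fitted; that of Rfc4 was 0.01 with RLE and 0.08 with upper quartile factors. After correction Rfc3 had 0.26. Rfc4 reached 0.57 after correction (edgeR adjusted p = 0.051), and 12.7% of its annotated exon length lies opposite Eif4a2, which fell with a log2 fold change of -1.57; the part of that overlap was not tested.

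Both genes of Okazaki fragment maturation rose as fitted. Fen1, the flap nuclease that trims the fragments, stood at 74.0 and 81.0 against 108 and 113 CPM (log2 fold change 0.52, edgeR adjusted p = 0.0142), and Lig1, the ligase that joins them, at 239 and 279 against 319 and 354 CPM (0.38, adjusted p = 0.0475). The corrected values were 0.22 and 0.13, not called. Most of the Fen1 exon length (78.8%) lies opposite an annotated antisense RNA that did not pass the count filter.

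Of the 3 deoxynucleotide supply genes 0 were called as fitted by edgeR (0 at an unadjusted p under 0.05, and 0 by DESeq2 or limma-voom), and 3 rose after correction. Rrm1, the large subunit of ribonucleotide reductase, stood at 422 and 429 against 468 and 447 CPM. The groups did not overlap, but the log2 fold change was 0.10 as fitted (edgeR adjusted p = 0.475). After correction it was 0.98 ± 0.119 (SE; edgeR adjusted p = 0.0055), the highest corrected value of the 36 genes. Rrm2, the small subunit that limits the enzyme outside S phase, stood at 489 and 463 against 462 and 451 CPM, and its log2 fold change was -0.06 as fitted (0.03 with upper quartile factors) and 0.48 after correction (edgeR adjusted p = 0.0327). Tyms, which makes thymidylate, stood at 81.7 and 78.6 against 93.8 and 94.7 CPM, with 0.23 as fitted and 0.60 after correction (edgeR adjusted p = 0.155 and 0.0204). The 3 transcripts have 44.4 to 47.8% GC.

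Of the 4 genes of replicating chromatin and repair, 3 rose and 1 fell as fitted. Slbp, which binds the stem-loop of replication-dependent histone mRNAs (GRCm38 chromosome 5, 33634952 to 33652574 on the minus strand), stood at 84.7 and 86.1 against 46.9 and 40.9 CPM. It fell 1.95-fold (log2 fold change -0.96 ± 0.138, SE; adjusted p = 0.00213 by edgeR) and after correction by 0.60 on the log2 scale (adjusted p = 0.0192). As fitted its call held without each library in turn. The corrected call did not hold without extravasated library 1 or 2, where the value was -0.60 and -0.56. Chaf1b, a subunit of the histone chaperone that follows the fork, stood at 120 and 112 against 176 and 176 CPM and rose with a log2 fold change of 0.60 (edgeR adjusted p = 0.00687; 0.26 corrected, not called). Uhrf1, which recruits maintenance DNA methylation to new DNA, rose with 0.47 as fitted, from 436 and 482 to 620 and 653 CPM (0.25 corrected, edgeR adjusted p = 0.184). Ung, which removes uracil from DNA, rose with 0.63 as fitted, from 14.8 and 18.4 to 25.5 and 26 CPM (0.16 corrected, edgeR adjusted p = 0.543). The replication-dependent histone genes, whose mRNAs mostly lack a polyA tail and are poorly sampled in polyA libraries, had 7 of 70 annotated genes past the filter, and these summed to 12.9 to 16.7 CPM per library.

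Among the G1/S regulators 3 of 6 rose as fitted, and after correction 0 of the 6 was called by edgeR. The 3 have a transcript GC content above 50%, where 36.5% of coding genes were higher as fitted. E2f1 and E2f2 are among the activating E2F factors. E2f1 stood at 80.8 and 91.7 against 136 and 132 CPM, and E2f2 at 27.6 and 25.9 against 40.2 and 41.5 CPM. Their log2 fold changes were 0.63 (edgeR adjusted p = 0.00705) and 0.61 (adjusted p = 0.0132), with 0.20 and 0.36 after correction. Cdk4, the kinase partner of D cyclins, stood at 243 and 267 against 345 and 384 CPM (log2 fold change 0.51, edgeR adjusted p = 0.013; 0.20 corrected). Tspan31, opposite 19.7% of the Cdk4 exon length, had a log2 fold change of 0.49. Ccne1, a cyclin of Cdk2, stood at 92.6 and 87.0 against 106 and 112 CPM and was called in neither fit (log2 fold change 0.28 as fitted and 0.0091 corrected). Ccne2, its paralog, stood at 33.1 and 19.9 against 11.7 and 18.7 CPM, with libraries of either group more than 1.5-fold apart. Ccne2 has the lowest transcript GC content of the set, 36.3%, and its log2 fold change went from -0.79 to 0.37, called in neither fit. Ints8, opposite 17.4% of its exon length, had a log2 fold change of -1.17.

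Ccnd1, the D cyclin that links growth signals to Cdk4, differed more within a group than between groups. Its level was 475 CPM in non-extravasated library 1, 82.7 CPM in non-extravasated library 2, and 410 and 404 CPM in the extravasated libraries. The low library lay 5.75-fold under the other of its group, and the log2 fold change of 0.55 ± 0.889 (SE) was not called (edgeR adjusted p = 0.662). Without non-extravasated library 1 the log2 fold change was 2.30, and without non-extravasated library 2 it was -0.22. Each of these fits has a lone non-extravasated library and so measures no spread within that group. After correction it was 0.57 with all libraries, and 2.32 and -0.19 without these libraries. LTO1, the gene opposite 23.4% of its exon length, stood at 13, 11.3, 11.7 and 14.8 CPM in the same order of libraries. Beside Ccnd1, 6 other members differed more between the non-extravasated libraries than their fold change (Mcm6, Mcm7, Gins1, Pole, Rfc4 and Rrm2), none of the 6 called as fitted by edgeR.

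**Figure D3:**
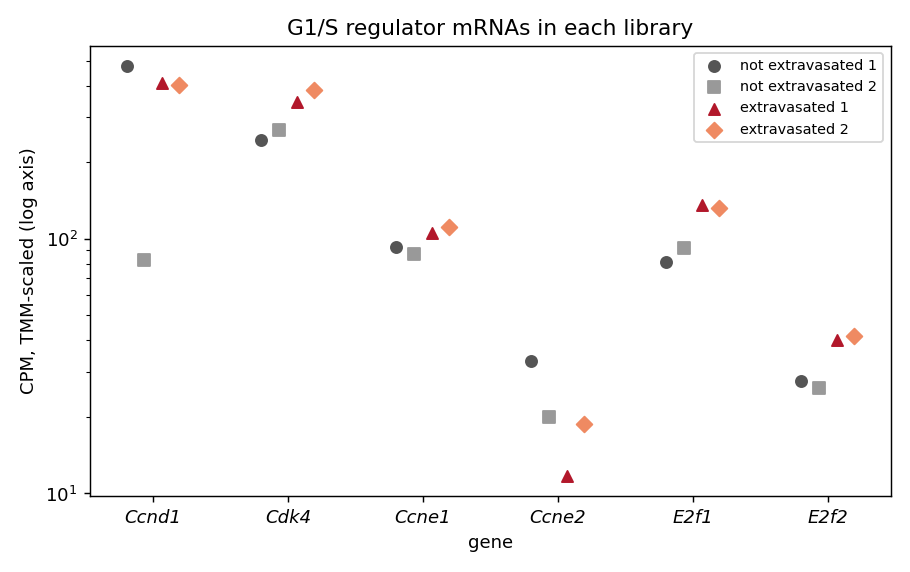
Levels of the 6 G1/S regulator mRNAs in TMM-scaled CPM (y axis, log scale) in each library. Ccnd1 is at 82.7 in non-extravasated library 2 and at 404 to 475 in the other libraries, while both extravasated libraries lie above both others for Cdk4, Ccne1, E2f1 and E2f2.

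As in coding genes at large, high GC content went with high fold changes in the 36 genes. Across them the fold change as fitted had a Spearman rho of 0.86 with GC content and 0.07 with transcript length, and after correction -0.21 with GC content (a description of 36 genes that share the same libraries). In the ranges chosen after the values were seen, 19 genes had a GC content of 50% or more, and 14 of them rose and 0 fell by edgeR, where 36.5% of 5831 coding genes in that range were higher and 3.24% lower. Of 12 genes with 45 to under 50%, 1 rose and 2 fell, against 4.33% and 35.3% of 2842 coding genes. Of 5 genes under 45%, 0 rose and 1 fell, against 0.326% and 74.7% of 2453 coding genes. The median log2 fold change of the members lay above that of coding genes in each range: 0.55 against 0.36 at 50% or more, 0.19 against -0.35 from 45 to under 50%, and -0.43 against -1.13 under 45%. After correction, in the same order of ranges, 1 of 19 rose and 0 fell, 5 of 12 rose and 1 fell, and 1 of 5 rose and 0 fell by edgeR, and the medians were 0.26 against 0.06, 0.45 against 0.06 and 0.37 against -0.02. The part of transcript GC content in these differences was not tested beyond the correction.

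**Figure D4:**
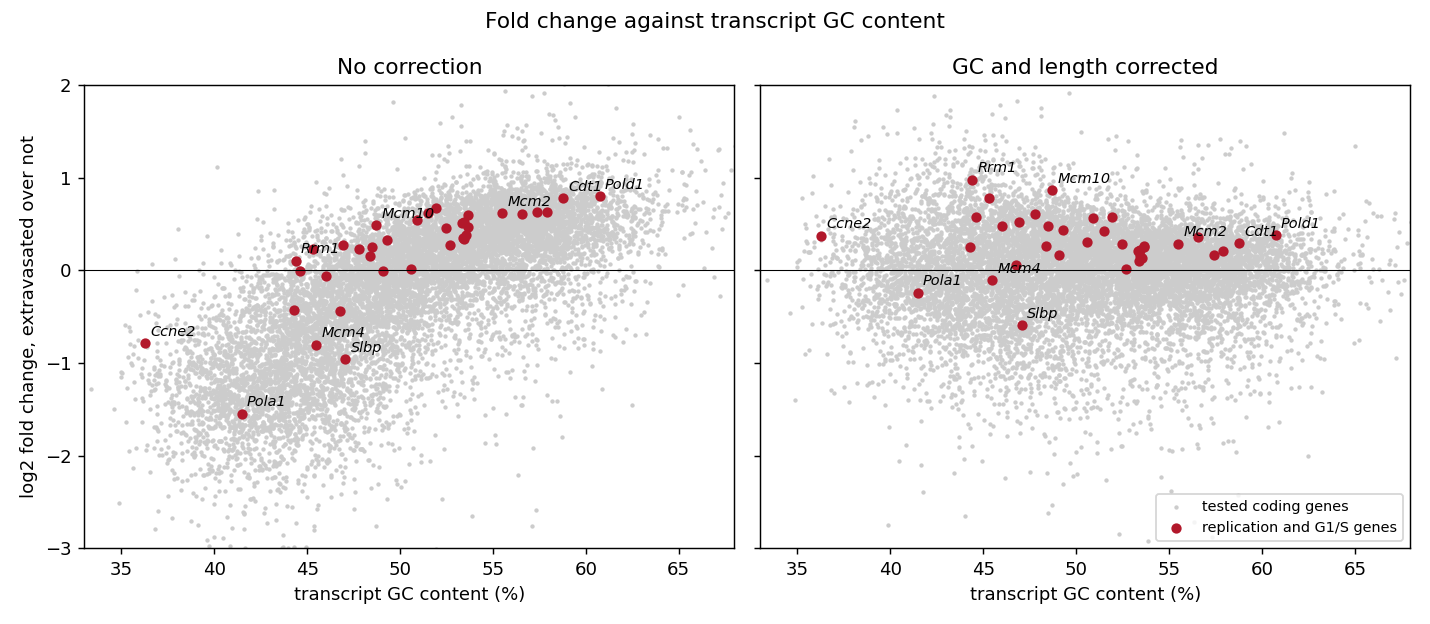
Log2 fold change (y axis) against transcript GC content in percent (x axis) for tested coding genes (grey) and the 36 replication and G1/S genes (red), as fitted (left) and after GC and length correction (right); 33 coding genes lie outside the plotted range. The trend from Pola1 at 41.5% to Pold1 at 60.7% on the left is gone on the right, where 33 of the 36 red points lie above 0.

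Other genes of the pathway, in 5 lists fixed by name, were also counted. Of 87 tested genes 12 rose and 31 fell as fitted, or 13.8% and 35.6%, where 19.1% of all tested genes were higher and 25.9% lower, and 35.3% of coding genes with 45 to under 50% GC were lower. After correction 5 rose and 5 fell, 5.75% in each direction, near the 8.24% and 5.8% of all tested genes. The 87 genes had a median log2 fold change of -0.25 as fitted and 0.11 corrected. These lists had a median transcript GC content of 48.1%, against 50.8% for the 36 genes. Of 17 further genes of licensing and helicase activation, 11 fell and 1 rose as fitted, or 64.7% and 5.88%, against 25.9% and 19.1% of all tested genes. Dbf4 and Cdc7, which form the kinase that turns on the loaded helicase, fell 2.72-fold and 2.36-fold and were also called after correction with all libraries (log2 fold changes -0.68 and -0.72, edgeR adjusted p = 0.0118 and 0.0241). Dbf4 stood at 131 and 124 against 48.8 and 45.1 CPM, and Cdc7 at 42.4 and 48.1 against 21.5 and 17 CPM. Their corrected calls ended without extravasated library 1 or 2, where the log2 fold changes were -0.65 and -0.67 for Dbf4 and -0.79 and -0.63 for Cdc7. Topbp1, which brings GINS and Cdc45 together, and Orc3, an origin recognition subunit, fell 2.08-fold and 2.26-fold as fitted and were not called after correction.

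Of 24 further replication fork genes 7 rose and 4 fell as fitted, or 29.2% and 16.7%, against 19.1% and 25.9% of all tested genes. Pold2, the second subunit of polymerase delta, rose 1.65-fold, as its partner Pold1 did, and Rnaseh2c, a subunit of the enzyme that removes ribonucleotides from DNA, rose 1.99-fold. Chtf18, of an alternative clamp loader, rose 1.69-fold, while Rfc1, the large subunit of the main clamp loader, fell 2.26-fold. These 4 genes were not called after correction, with log2 fold changes of 0.17, 0.37, 0.34 and -0.49. The rise of Chtf18 lost its call without extravasated library 2 (log2 fold change 0.69).

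In fork protection and the replication checkpoint 6 of 10 tested genes fell and 1 rose as fitted, or 60% and 10%, against 25.9% and 19.1% of all tested genes. Clspn, the adaptor that passes the signal from ATR to Chek1, stood at 127 and 114 against 50.2 and 37.1 CPM, a 2.76-fold fall that was called after correction too (log2 fold change -1.46 as fitted and -1.13 corrected, edgeR adjusted p = 0.00121 and 0.0055) and lost its corrected call without extravasated library 2 alone (log2 fold change -0.99). Tipin, Rad17 and Chek1 fell 1.82-fold, 1.99-fold and 1.99-fold as fitted and had corrected values of 0.17, -0.08 and 0.19, not called.

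Of 10 further deoxynucleotide genes 1 rose and 3 fell as fitted, or 10% and 30%. The share of falls is near the 25.9% of all tested genes, of which 19.1% were higher. Tk1, thymidine kinase, rose 1.66-fold, and Dck, deoxycytidine kinase, fell 1.94-fold; neither was called after correction, and Dck was not called as fitted without extravasated library 2 (log2 fold change -0.79). Rrm2b, the ribonucleotide reductase subunit induced by p53, fell 4.62-fold, from 31.2 and 19.4 to 6.89 and 4.16 CPM, and had -0.87 after correction (adjusted p = 0.0752).

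Of 26 further G1/S regulators 2 rose and 7 fell as fitted, or 7.69% and 26.9%, against 19.1% and 25.9% of all tested genes. The share of falls is thus near that of all tested genes. Ccnd3 and E2f4 were the 2 that rose, with log2 fold changes of 0.74 and 0.40 (edgeR adjusted p = 0.0161 and 0.0439). After correction they had 0.26 and -0.05, not called. Rb1, the retinoblastoma protein, fell 3.86-fold, from 26.6 and 17.9 to 5.98 and 5.53 CPM, and was called after correction (log2 fold change -0.69, edgeR adjusted p = 0.0494), a call that held only without non-extravasated library 2 among the fits with 1 library left out (-0.79 there and -0.77 to -0.60 in the others). Fbxo5, an inhibitor of the ubiquitin ligase that keeps G1 cells from S phase, fell 2.85-fold and was called after correction with -0.88, but not without extravasated library 1 or 2 (-1.06 and -0.68). Rbl1, a relative of Rb1, fell 2.51-fold as fitted, as did Tfdp2, a partner of E2F factors, 2.43-fold; neither was called after correction. Cdkn1b, the p27 inhibitor, fell 1.90-fold as fitted, a call that ended without extravasated library 1 or 2 (-0.85 and -0.88), and had 0.12 after correction, and Cdk2 had 0.20 and 0.38, called in neither. Myc and Cdkn1a, the p21 inhibitor, resembled Ccnd1 in non-extravasated library 2: Myc stood at 108 and 38.7 against 118 and 122 CPM and Cdkn1a at 259 and 72.3 against 132 and 153 CPM, and neither was called.

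The 30 mitosis and cytokinesis genes, which act later in the cycle, were counted for comparison. As fitted 4 rose and 18 fell, or 13.3% and 60%, against 19.1% and 25.9% of all tested genes and 4.33% and 35.3% of coding genes with 45 to under 50% GC, with a median log2 fold change of -0.96. Their summed level was 5712 and 4921 CPM without and 3577 and 3618 CPM with extravasation. The mitotic transcripts have a median GC content of 45.9% and run from 39.8% to 56%. Of coding genes under 45% GC, 0.326% were higher and 74.7% lower, and at 50% or more 36.5% were higher and 3.24% lower. After correction 2 rose and 3 fell, or 6.67% and 10%, against 8.24% and 5.8% of all tested genes. The rises were those of Mad2l1, at 0.93, and Cdk1, at 0.52 (edgeR adjusted p = 0.0179 and 0.0378). As fitted Mad2l1 had fallen, with a log2 fold change of -0.54, and Cdk1 had 0.06, not called. Fits of these 2 genes with 1 library left out are not shown. The falls were those of Anln, Kif23 and Kif11, of cytokinesis and the spindle, each without a call once extravasated library 1 or 2 was left out (-0.69 and -0.80 for Anln, -0.71 and -0.83 for Kif23, -0.49 and -0.85 for Kif11). The corrected median was -0.15, and the corrected sums of 4412 and 4338 against 3982 and 4293 CPM differed by less than the as-fitted ones. The difference between the lists was not tested.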

How the data were processed

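Stranded TruSeq mRNA libraries of 4 samples were sequenced, per the labels' protocols. The deposited values are unnormalized read counts of genes. Per the submitters' processing notes, STAR 2.5.3a, bcl2fastq 2.18.0.12 and GRCm38 were used; which program counted, with which annotation, strand setting and filters, is not given in the sources used here. Counts of overlapping genes are thus uncertain, and exons of 12 of the 36 genes overlap another gene. Of 53465 identifiers, 53274 matched GENCODE M21 (GRCm38), whose gene coordinates are printed. Pseudogenes named after Pcna and Tyms held at most 39 counts in any library.

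Groups came from the extravasation field. Library totals ran from 11705904 to 19674733 counts. The test was edgeR 4.0.16 (R 4.3.3), two-sided quasi-likelihood with robust dispersions and TMM factors, no covariates, after its expression filter (at least 10 counts, 15 in total). P-values were adjusted by Benjamini-Hochberg over all 12320 tested genes, with a threshold of 0.05. Each SE is the log2 fold change divided by the square root of F. For the correction, the deviation of log2 CPM (prior count 2) from the gene's mean was modelled in each library as a smooth function of GC content and log2 length (mgcv 1.9.3, basis size 10) and entered as an offset. Both came from the APPRIS principal transcript where a gene had one. Otherwise an APPRIS alternative was taken, or else a transcript chosen by support level and length. These properties were known for 99.89% of tested genes, and the chosen transcript may differ from the one present in these cells. Mitochondrial genes got no offset. The fit without correction was tested on simulated counts that held no GC or length trend, and the corrected fit was not tested in this way. Alternatives were RLE and upper quartile factors, unscaled totals, DESeq2 1.42.0, limma-voom (limma 3.58.1), other filters, non-robust dispersions, a term for the form of the title suffix, an adjusted p under 0.01, other forms of the correction, and leaving out each library. With 1 library left out, the lone library of its group is assumed to vary like the other group. Members and gene lists were chosen with earlier results of these data known. All 36 members were named, with up to 4 called genes per other list by smallest adjusted p and regulators fixed by name; some items are not reported here.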

Additional observations from a re-analysis of the deposited data

How the results depend on the processing

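Of the fits with all libraries and no correction, those with RLE factors, DESeq2, limma-voom and the filter of CPM above 1 each had 15 of the 36 genes higher, as in the main test. That count was 17 with upper quartile factors, 13 without scaling, 16 without an expression filter, 14 without robust moderation and 16 with the replicate block. In the same order 3034, 1943, 2575, 2341 and 2632 of all tested genes were higher, against 2355 in the main test. The median log2 fold change of the 36 was above 0 in every fit run. That median was 0.42 with upper quartile factors and 0.27 with the longest transcripts in the correction. Without an expression filter 5 of the 36 genes were lower, and 3576 of all tested genes, against 3196 in the main test. At an adjusted p under 0.01, 6 of them were higher, and 903 of all tested genes were higher and 1889 lower. The form of the title suffix as a replicate block gave 5 lower genes of the 36, and 3533 over all tested genes. The labels do not say that it pairs libraries, and the differences it marks in the 2 groups had a Spearman rho of 0.07 across genes. The block left the directions of the 36 genes as they were, while Cdkn1a had 0.0403 there and 0.0889 with limma-voom.

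The GC and length correction gave 1015 genes higher and 714 lower over all tested genes and 7 and 1 of the 36. GC alone gave 1204, 1000, 11 and 1 in the same order, and the longest transcripts gave 996, 673, 9 and 1. With 1 library left out, all tested genes higher ran from 545 to 2758 as fitted and from 0 to 2049 corrected, and genes lower from 1329 to 3541 and from 2 to 1517. Of the 36, 3 to 16 were higher as fitted and 0 to 13 corrected, and 2 to 5 and 0 to 1 were lower. Their median ran from 0.28 to 0.46 as fitted and from 0.26 to 0.33 corrected. In the corrected fits without extravasated library 1 and 2 in turn, that median was 0.29 and 0.30.

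These log2 fold changes changed sign against the fit of all libraries without correction; the cause was not tested. With RLE factors Mcm6 and Rfc4 had 0.0101 and 0.0125, with upper quartile factors 0.0793 and 0.0797 (Rrm2 0.0336), and with DESeq2 0.010 and 0.0122. Pole had -0.0437 without scaling and -0.0061 with limma-voom. The GC and length correction turned Orc1 (0.0516), Mcm6 (0.161), Prim1 (0.255), Rfc4 (0.571), Rrm2 (0.480), Ccne2 (0.374), Tipin (0.172), Chek1 (0.194), Dck (0.012) and Cdkn1b (0.121). GC alone turned Orc1 (0.0879), Mcm6 (0.184), Prim1 (0.430), Rfc4 (0.806), Rrm2 (0.577), Ccne2 (0.437), Tipin (0.346), Chek1 (0.224), Dck (0.0711) and Cdkn1b (0.0683). The longest transcripts turned Mcm6 (0.461), Prim1 (0.214), Rfc4 (0.685), Rrm2 (0.421), Ccne1 (-0.0275), Ccne2 (0.289), Tipin (0.149), Chek1 (0.176) and Cdkn1b (0.097).

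Over the fits as fitted and corrected with 1 library left out, the ranges of genes whose sign changed at least once were -0.526 to 0.182 for Orc1, -0.865 to 0.0153 for Mcm4, -0.0679 to 0.238 for Mcm6, -0.0732 to 0.558 for Mcm7, -0.514 to 0.427 for Prim1, -0.0702 to 0.416 for Pole, -0.106 to 0.747 for Rfc4, -0.093 to 0.560 for Rrm2, -0.220 to 2.32 for Ccnd1, -0.0166 to 0.414 for Ccne1 and -1.12 to 0.658 for Ccne2. For genes of other lists they were -0.894 to 0.339 for Tipin, -1.13 to 0.268 for Chek1, -1.02 to 0.200 for Dck, -1.41 to 0.038 for Ncapg, -1.19 to 0.608 for Cdkn1b, -0.427 to 1.63 for Myc and -1.25 to 0.975 for Cdkn1a. Depth was at least 129 counts for each of the 36 genes in each library.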
